A study of Mus musculus with 12 samples.

Results

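The genes described here are 10 genes of glycolysis, lactate metabolism and sugar or lactate transport: the lactate dehydrogenases Ldha, Ldhb and Ldhc, the phosphoglycerate kinases Pgk1 and Pgk2, the glyceraldehyde-3-phosphate dehydrogenases Gapdh and Gapdhs, the pyruvate kinase Pkm, the lactate carrier Slc16a1 and the glucose carrier Slc2a3. They were chosen by symbol, to set the isozymes of germ cells beside those of somatic cells, and are 10 of 20620 genes in the deposited counts, of which 18024 had at least 1 count. All 10 had a count in at least 1 library.

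RNA and ribosome footprints were sequenced from testes of C57BL/6 mice at postnatal day 16. The groups were Mael+/- (heterozygous controls) and Mael-/- (lacking Maelstrom, a protein of the piRNA pathway that holds retrotransposons in check in germ cells). Each genotype had 3 extracts, and each extract, prepared with cycloheximide to hold ribosomes on mRNA, gave 1 RNA library and 1 footprint library, so that there were 12 libraries. The series describes the replicates as biological, and the labels do not say how many animals made an extract, so p-values measure the spread between these extracts.

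Glycolysis splits glucose into pyruvate, and lactate dehydrogenase converts pyruvate and lactate into each other. In the testis, Sertoli cells, the somatic nurse cells of the tubule, take up glucose and hand lactate to germ cells, which favour it as fuel from meiosis onward. Several enzymes of the pathway have germ cell isozymes: Ldhc beside Ldha and Ldhb, Pgk2, an intronless autosomal copy of the X-linked Pgk1, and Gapdhs, the GAPDH of the sperm tail. Many glycolytic mRNAs have also left processed pseudogenes, which are copies of the mRNA reinserted into the genome, and reads from such a gene can match its copies equally well.

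Whether reads can tell an isozyme from its relatives depends on the sequence, so stretches of coding sequence from the reference assembly GRCm38.p6 (the sequence of mm10, to which the authors aligned) are shown first, with RefSeq gene models. In the pair of isozymes below, capitals mark the bases that differ between them, and positions count from 1 at the start of the coding sequence. Ldhc (chr7:46861263-46878147, plus strand) lies 5635 bases beyond the end of Ldha (chr7:46842274-46855627, plus strand). Their coding sequences were identical at 736 of 998 aligned bases (73.7%), and the longest run without a difference was 20 bases. The stretch with the longest such run begins at position 653 of Ldhc and 740 of Ldha.
Ldhc: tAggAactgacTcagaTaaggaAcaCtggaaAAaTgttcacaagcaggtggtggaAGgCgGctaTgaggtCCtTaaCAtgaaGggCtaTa
Ldha: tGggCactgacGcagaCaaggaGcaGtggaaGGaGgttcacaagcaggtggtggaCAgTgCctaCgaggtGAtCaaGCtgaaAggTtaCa
Pgk2 (chr17:40207018-40208609, minus strand) and Pgk1 (chrX:106187100-106203699, plus strand) were identical at 994 of 1254 coding bases (79.3%), with a longest identical run of 22 bases.
Ldhb (chr6:142490249-142507957, minus strand) and Ldha matched at 72.1% of aligned bases, with a longest run of 18, and Gapdhs (chr7:30729779-30744791, minus strand) and Gapdh (chr6:125161852-125166467, minus strand) at 70.9%, with a longest run of 20. No identical run within a pair was as long as 28 bases, the shortest footprint the study kept, so the isozymes were distinct from each other at footprint length.

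The somatic genes shared coding sequence with their pseudogenes, Pgk1 and Gapdh wholly or nearly so, and Ldha, Ldhb and Pkm in part. The whole coding sequence of Pgk1, 1254 bases, stands without a difference in the pseudogenes Gm5537 on chromosome 3 and Pgk1-rs7 on chromosome 12. The next lines show positions 583 to 672 of the coding sequence beside the copy in Gm5537, at chr3:58103576-58103665 on the minus strand. They hold no capitals, since no base differs.
Pgk1: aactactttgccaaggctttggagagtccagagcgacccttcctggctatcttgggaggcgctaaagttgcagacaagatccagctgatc
Gm5537: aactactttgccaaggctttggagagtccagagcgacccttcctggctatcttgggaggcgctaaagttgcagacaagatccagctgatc
Gapdh is shown for the same reason. Positions 526 to 615 of its coding sequence stand unchanged in the pseudogene Gm12671, at chr4:91852133-91852222 on the minus strand.
Gapdh: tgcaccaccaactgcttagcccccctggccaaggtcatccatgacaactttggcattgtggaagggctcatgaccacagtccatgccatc
Gm12671: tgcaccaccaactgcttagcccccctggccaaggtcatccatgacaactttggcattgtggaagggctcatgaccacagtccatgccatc
The share of 30-base stretches of the coding sequence that occur nowhere else in the genome, called the unique share here, was 0 of 1225 for Pgk1 and 60 of 1051 (5.7%) for Gapdh, which shared a stretch with 339 other loci. It was 37.1% for Pkm, 37.9% for Ldha and 42.9% for Ldhb, whose single copy, the pseudogene Ldhb-ps on chromosome 19, held 56.5% of its stretches. Of 75-base stretches of the mRNA, the length of the RNA reads, 85.6% were unique for Pkm, 92.1% for Ldha and 79.8% for Ldhb. The same share was 8.5% for Pgk1 and 6.2% for Gapdh. The unique share was 98.8% for Ldhc and 100% for Pgk2, and 99.1% and 99.0% for the carriers Slc16a1 and Slc2a3. None of these genes shared a stretch with another locus. The stretches of Ldhc, Slc16a1 and Slc2a3 that were not unique matched only the gene's own locus. A stretch across an exon junction can match there by running from the exon into the intron. A share slightly under 100% therefore need not mean a copy elsewhere. The unique share was 91.1% for Gapdhs, which shared a stretch with 226 other loci but as many as 100 stretches with 0 of them. The median over 11542 genes with RNA in these testes was 98.4%, and 14.3% of them had a lower share than Gapdhs. None of the 13 annotated pseudogene copies listed for these genes had a row of its own among the gene counts.

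Summed over genes, RNA libraries held 13697267 to 27462358 counts and the shallower footprint libraries 7609932 to 13233565. Levels are given as CPM (counts scaled to a common library size of 1e+06) on TMM-scaled library sizes, which adjust for composition, and levels of different genes are compared per kb of mRNA (RNA) or of coding sequence (footprints). Mael, the targeted gene, had 3800 to 5045 counts in Mael+/- RNA and 0 to 2 in Mael-/- RNA. Mael+/- extract 1 stood apart from the others. Its 12 pachytene spermatocyte markers summed to 871 CPM in RNA, against 321 and 342 in the other Mael+/- libraries and 257 to 295 in the Mael-/- libraries, and to 979 CPM in footprints, against 266 to 368 elsewhere. Its 10 markers of early meiotic prophase summed to 2343 CPM in RNA, against 1130 to 1551 elsewhere, and to 3140 in footprints, against 1420 to 1679. All 10 Sertoli cell markers were present and their sum, 2886 to 3369 CPM in RNA and 3761 to 5529 in footprints, overlapped between genotypes, as did the sums of Leydig cell, spermatogonia and macrophage markers. Markers of round spermatids were low, and the 8 summed to 6.29 to 8.55 CPM in RNA and 3.22 to 4.97 in footprints. Of the 8, 5 exceeded 3 counts in at least 1 RNA library and 4 in at least 1 footprint library. Prm1, Prm2 and Tnp2 had at most 3 counts in every library. Of the pachytene markers, Adam3 had at most 3 counts in every footprint library. In whole testes, fewer cells of a type and less RNA per cell cannot be told apart.

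Per kb of annotated length, Ldhb had the highest level of the genes in RNA and in footprints. The germ cell isozymes Pgk2 and Gapdhs were near the limit of detection. These levels were not scaled to unique sequence, in which the mRNA of Gapdh (6.2%) and Pgk1 (8.5%) is far poorer than that of Ldhb (79.8%). Where reads with several matches were not counted, Gapdh and Pgk1 are placed too low, so this order need not be that of true amounts. Per kb, the level in Mael+/- RNA was 350 ± 23.3 CPM (SD, n = 3) for Ldhb, 168 ± 13.4 for Pkm, 91.8 ± 1.91 for Gapdh, 53.2 ± 5.74 for Slc16a1 and 36.0 ± 2.28 for Ldha. None of these overlapped its neighbour in that order, except that Ldha overlapped the next gene, Ldhc, at 20.0 ± 26.3. Slc2a3, at 19.9 ± 11.0, could not be placed above or below Ldhc or Pgk1, at 11.7 ± 1.83. Pgk2 stood at 0.399 ± 0.391 and Gapdhs at 0.0324 ± 0.0130. In Mael-/- RNA the first 5 genes had the same order, and Ldhc, at 2.92 ± 0.510 CPM per kb, lay below Pgk1 and Slc2a3 without overlap. In Mael+/- footprints Ldhb again came first, at 540 ± 75.7 CPM per kb of coding sequence, followed by Pkm at 152 ± 17.3 and Slc16a1 at 135 ± 17.8, whose ranges overlapped, while Gapdh, at 7.78 ± 1.36, came on average below Ldhc, Ldha and Slc2a3.

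**Figure D1:**
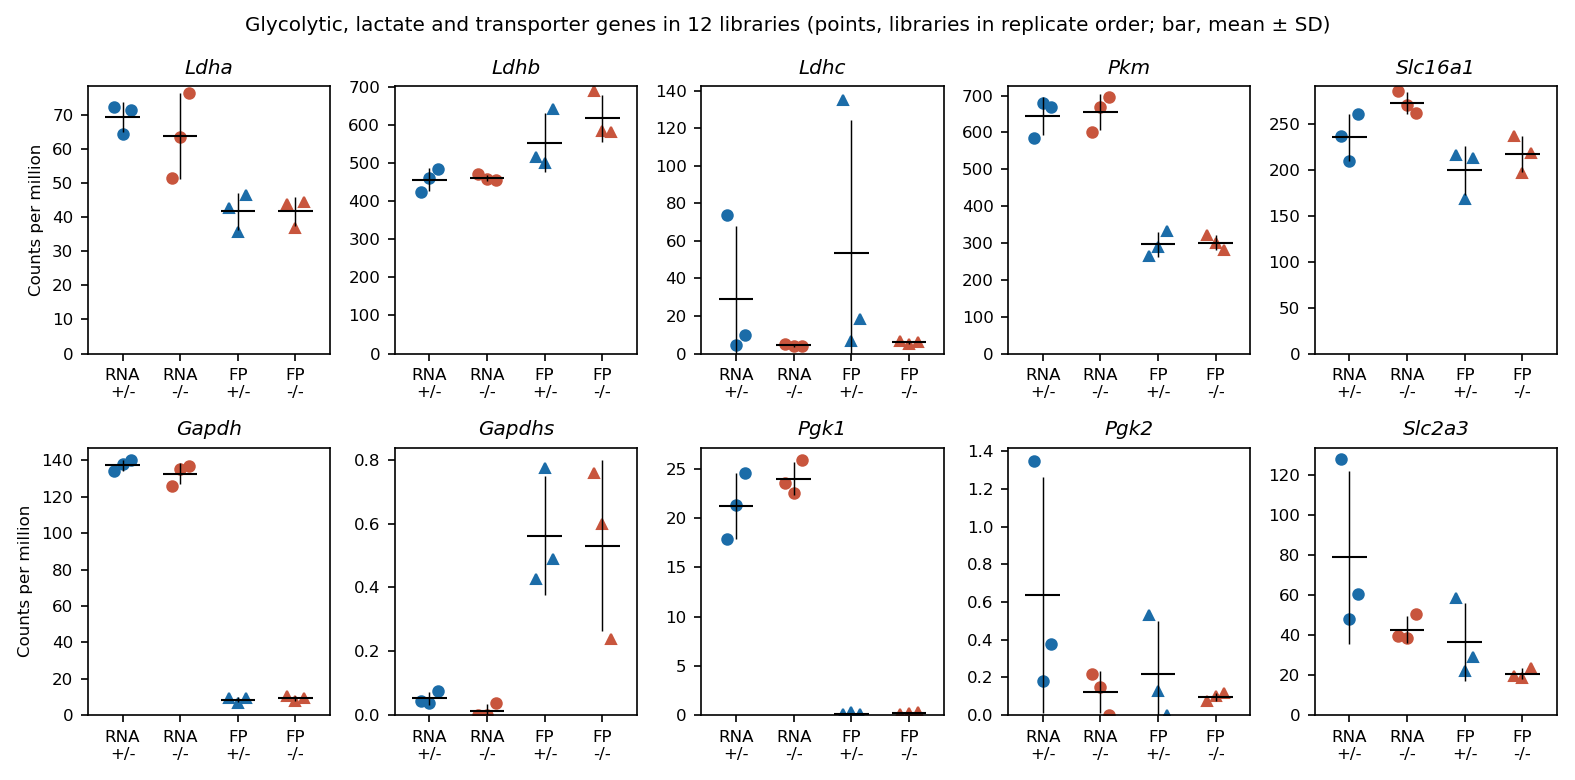
Level of each of the 10 genes (y axis, CPM from 0, a separate scale per gene) in RNA (circles) and footprint (FP, triangles) libraries of Mael+/- (blue) and Mael-/- (red) testes; bars give the mean and SD of 3 libraries, cut at 0. Ldhc, Pgk2 and Slc2a3 are highest in the first Mael+/- extract, and Pgk1 and Gapdh are far lower in footprints than in RNA.

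The comparison of genotypes asked whether loss of Mael changed these genes. Of the 10 genes, 8 passed the filter on low counts in RNA (not Pgk2 or Gapdhs) and 7 in footprints (not Pgk1, Pgk2 or Gapdhs). With edgeR's quasi-likelihood test, 0 of 8 were called in RNA at an adjusted p under 0.05, where 0.116% of 14685 genes were called, and 0 of 7 in footprints, where 0.0593% of 13500 were called. At an unadjusted p under 0.05, 3 of 8 differed in RNA (Ldhc, Slc2a3 and Slc16a1; 5.40% of all genes) and 2 of 7 in footprints (Ldhc and Slc2a3; 4.33% of all genes). DESeq2 also called 0 in each. Their median log2 fold change was -0.01 in RNA and 0.02 in footprints, against 0.00 and -0.01 over all genes tested.

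Ldhc, which encodes the lactate dehydrogenase of spermatocytes, spermatids and sperm, had the largest difference. Its RNA level was 73.6, 4.33 and 9.93 CPM in Mael+/- extracts 1 to 3 and 5.14, 3.87 and 3.82 CPM in the Mael-/- extracts. Extract 1 of Mael+/- was 17.2 times the Mael-/- mean, extract 3 was 2.32 times, and extract 2 lay among the Mael-/- libraries. In footprints it had 135, 6.71 and 18.5 CPM in Mael+/- and 6.59, 4.89 and 6.39 CPM in Mael-/- libraries. The footprint groups did not overlap, which held for 9.05% of all genes tested, but Mael+/- extract 2 lay only just above the highest Mael-/- library. The fitted log2 fold change of Mael-/- against Mael+/- was -2.78 in RNA (SE 0.87, 95% interval -4.73 to -0.83, edgeR unadjusted p 0.00986, adjusted p 0.758). It was -3.17 in footprints (SE 0.86, -5.08 to -1.26, edgeR unadjusted p 0.00393, adjusted p 0.750). Without Mael+/- extract 1 it shrank to -0.75 in RNA (SE 0.28, edgeR adjusted p 0.554) and -1.12 in footprints (SE 0.33, edgeR adjusted p 0.468). Mael+/- extract 1, the highest in Ldhc, was also the highest in pachytene markers, a list that does not hold Ldhc. In RNA the summed markers were at 1.21 times the Mael-/- mean in extract 3 and at 1.14 times in extract 2. In footprints they were at 1.29 and 1.09 times, where Ldhc was at 3.11 and 1.13 times. The part of these markers in the difference of Ldhc was not tested.

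Slc2a3, the glucose carrier GLUT3, followed the same extracts with a smaller range. It had 128, 47.7 and 60.2 CPM in Mael+/- RNA and 39.2, 38.2 and 50.6 CPM in Mael-/- RNA, so that the groups overlapped. Its footprints gave 58.4, 21.9 and 29.0 CPM in Mael+/- and 19.3, 18.6 and 23.7 CPM in Mael-/- libraries. The log2 fold change was -0.87 in RNA (SE 0.31, edgeR adjusted p 0.857) and -0.84 in footprints (SE 0.29, edgeR adjusted p 0.998). Without Mael+/- extract 1 both were -0.33.

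**Figure D2:**
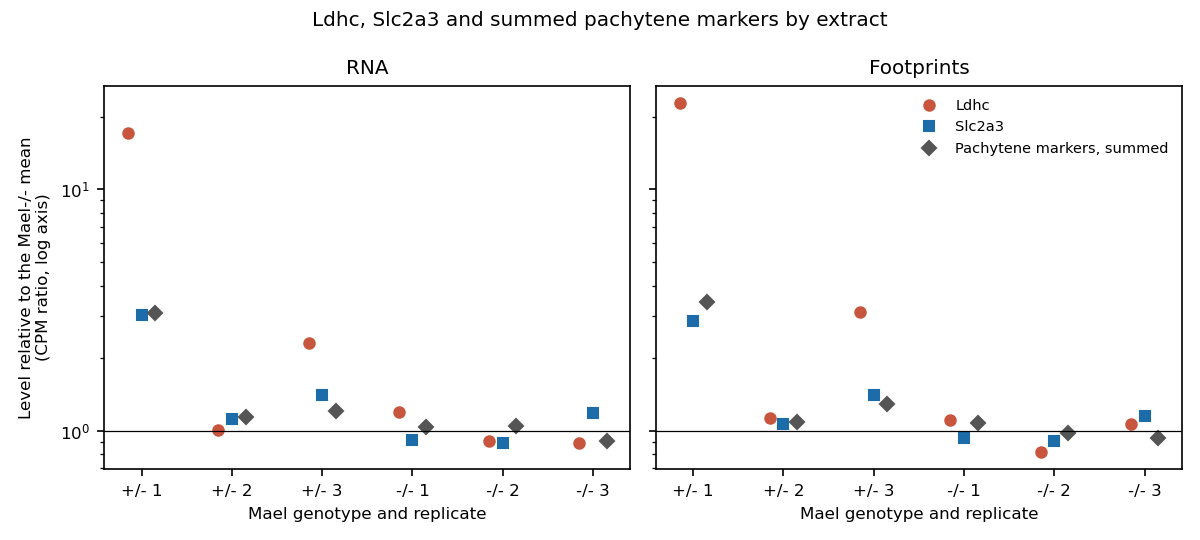
Levels of Ldhc, Slc2a3 and the summed pachytene markers in each library (x axis, genotype and replicate), as a ratio to the mean of the Mael-/- libraries of that assay (y axis, log scale; left RNA, right footprints). In Mael+/- extract 1 Ldhc is 17.2 and 22.7 times that mean, while Slc2a3 is 3.01 and 2.85 times and the markers are 3.08 and 3.43 times.

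Among the germ cell isozymes, Pgk2 had 31, 5 and 10 RNA counts in Mael+/- libraries 1 to 3 and 3, 3 and 0 in Mael-/- libraries. Its footprints numbered 5, 1 and 0, and 1, 1 and 1. The highest values of Pgk2 thus also came from Mael+/- extract 1, but both groups held too few counts for a test. Gapdhs had 5 RNA counts and 33 footprint counts over the 6 libraries of each assay. The RNA counts were 1, 1 and 2 in Mael+/- and 0, 0 and 1 in Mael-/- libraries. The footprint counts were 4, 6 and 5, and 10, 6 and 2. At this depth no difference of Gapdhs between genotypes was detectable.

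The somatic isozymes and the lactate carrier differed little between genotypes. Ldhb, the heart-type subunit of lactate dehydrogenase, had 424, 461 and 485 CPM in Mael+/- RNA and 470, 458 and 456 CPM in Mael-/- RNA. Its log2 fold change was 0.02 in RNA (95% interval -0.16 to 0.21) and 0.16 in footprints (-0.11 to 0.43). Ldha, the muscle-type subunit, had 72.5, 64.5 and 71.6 CPM in Mael+/- RNA and 51.6, 63.6 and 76.6 CPM in Mael-/- RNA, which overlap. Its log2 fold change was -0.11 in RNA (-0.41 to 0.19) and 0.00 in footprints (-0.29 to 0.28). Pkm, which makes pyruvate in the last step of glycolysis, ran from 586 to 680 CPM in Mael+/- RNA and from 602 to 696 CPM in Mael-/- RNA, with a log2 fold change of 0.03 (-0.18 to 0.24). Gapdh, at 134 to 140 CPM against 126 to 137 CPM in RNA, differed by -0.04 (-0.22 to 0.13), and Pgk1, at 17.9 to 24.6 CPM against 22.6 to 25.9 CPM, by 0.18 (-0.12 to 0.48). A change of RNA by 2-fold in either direction lies outside each of these intervals.

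Slc16a1, the monocarboxylate carrier MCT1 through which lactate crosses membranes, was the only one of the 8 genes whose RNA groups did not overlap, which held for 10.4% of all genes tested. It had 237, 210 and 261 CPM in Mael+/- RNA and 286, 271 and 262 CPM in Mael-/- RNA, where the highest Mael+/- library lay just under the lowest Mael-/- library. The log2 fold change was 0.22 (SE 0.10, edgeR unadjusted p 0.0482, adjusted p 0.923). Its footprints overlapped, at 217, 169 and 213 CPM against 237, 197 and 219 CPM, with a log2 fold change of 0.12 (SE 0.12).

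**Figure D3:**
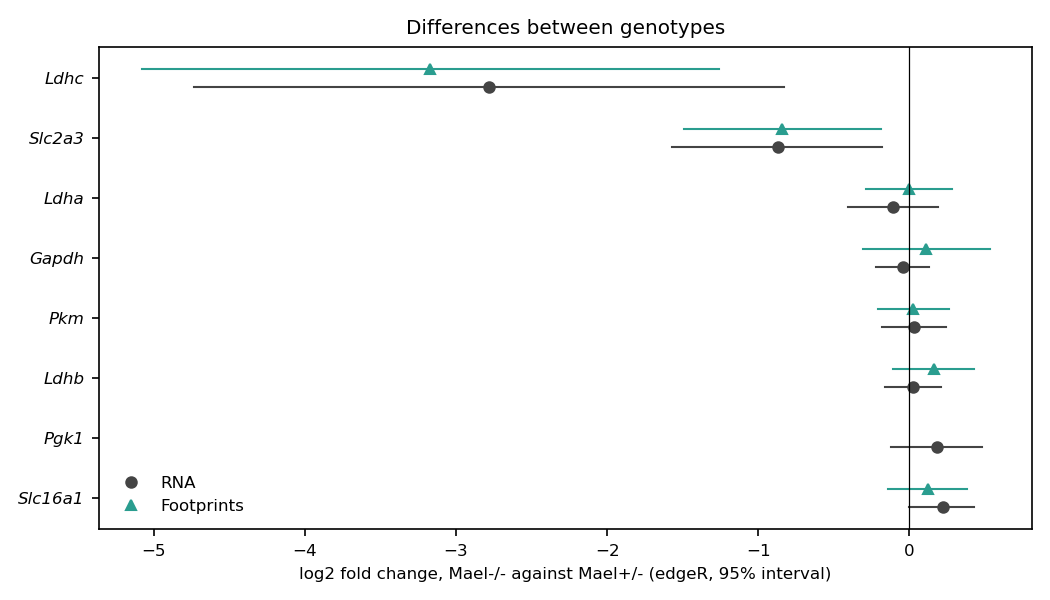
Log2 fold change of Mael-/- against Mael+/- testes (x axis, edgeR, with 95% intervals) for the genes that passed the filter on low counts, in RNA (circles) and footprints (triangles). Ldhc and Slc2a3 lie to the left of 0 with wide intervals, and the other genes lie near 0; Pgk1 had too few footprints to be tested.

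The next comparison concerned translation apart from the amount of RNA. The change of footprints beyond that of RNA was tested as the genotype-by-assay term of a fit to all 12 libraries. By this test 0 of 8 genes were called, where 0% of 14374 genes were called. At an unadjusted p under 0.05 there were 0 of 8, against 0.577% of all genes. This fit left out the pairing of libraries within an extract, and so low a share marks it as cautious. In counts simulated without such pairing it recovered 43.4% of 2-fold and 86.1% of 4-fold changes. Its 0 calls therefore do not show that translation was unchanged. With each extract as a block, 0% of 14374 genes were called as well. The value for Ldhc was -0.38 (SE 1.46), an interval from -3.50 to 2.74. RNA and footprints of an extract deviate together, and with each extract as a block the value for Ldhc was -0.37 (SE 0.17, interval -0.73 to -0.01, edgeR unadjusted p 0.0455, adjusted p 1). For the remaining genes without the block the values ran from -0.09 for Slc16a1 to 0.20 for Pgk1, the latter from 1 to 3 footprint counts per library.

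The ratio of isozymes within a library asked which form of an enzyme was the more abundant per kb of annotated length. These ratios were not scaled to unique sequence, whose share of the coding sequence was 37.9% for Ldha, 42.9% for Ldhb and 98.8% for Ldhc. Where reads with several matches were not counted, the footprint ratios of Ldhc to Ldha are therefore too high. Ldhb exceeded Ldha per kb in every library, by 8.66 to 13.5 times in RNA and by 12.8 to 16.7 times in footprints. The log2 ratio of Ldhb to Ldha differed between genotypes by 0.16 in RNA (exact two-sided permutation test, p = 0.400) and by 0.16 in footprints (exact permutation p = 0.300). Ldhc exceeded Ldha in Mael+/- extract 1, by 1.34 times in RNA and 3.43 times in footprints. In the other 5 extracts Ldha was the more abundant, by 5.47 to 15.1 times in RNA and by 2.32 to 6.87 times in footprints. The mean log2 ratio of Ldhc to Ldha was -1.84 ± 2.03 (SD, n = 3) in Mael+/- RNA and -3.49 ± 0.51 in Mael-/- RNA, a difference of -1.65 (exact permutation p = 0.200). In footprints it was -0.57 ± 2.10 and -2.69 ± 0.09, a difference of -2.11 (exact permutation p = 0.1). With 3 extracts against 3 the test cannot go below 0.1, and over the 8 ratios tested the smallest Benjamini-Hochberg adjusted p was 0.400. The other 4 ratios, of Pgk2 to Pgk1 and Gapdhs to Gapdh, had exact permutation p-values from 0.1 to 0.900. Their sizes are not given here, since they rest on libraries with 0 to 3 counts.

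**Figure D4:**
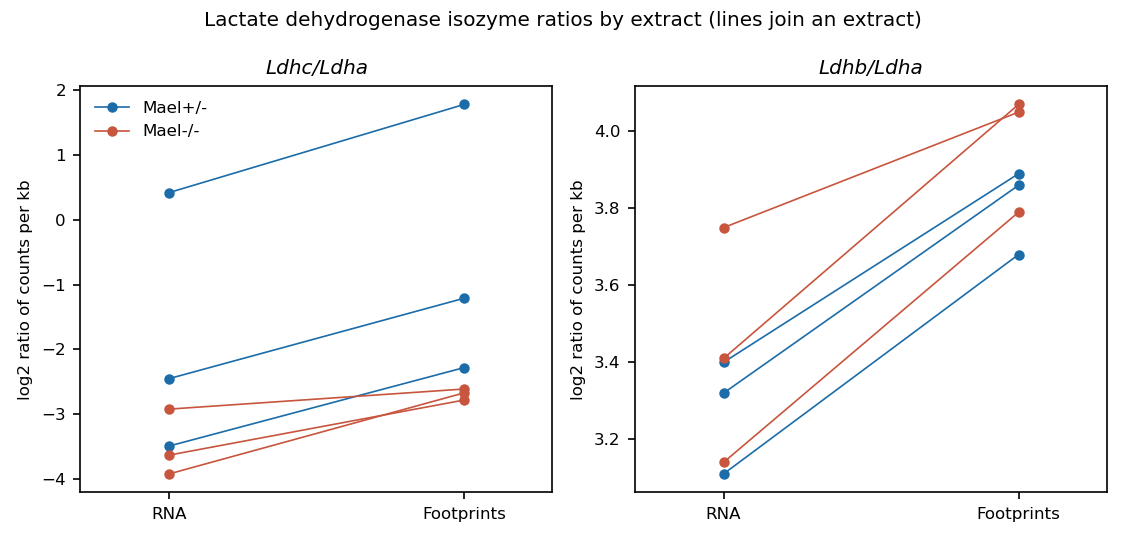
Log2 ratio of counts per kb for Ldhc to Ldha (left) and Ldhb to Ldha (right) in the RNA and footprint libraries of each extract (y axes, separate scales); each line joins the libraries of an extract, Mael+/- in blue and Mael-/- in red. Every line rises from RNA to footprints, and in extract 1 of Mael+/- alone Ldhc exceeds Ldha.

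Footprints were then set against RNA within each genotype, to see how far ribosomes followed the amount of each mRNA. Values are differences relative to the bulk of genes, without length. In Mael+/- testes 6 of 8 genes were called, 1 higher and 5 lower in footprints, where 56.7% of all genes were called. In Mael-/- testes 7 of 8 were called, 1 higher and 6 lower, where 57.2% were called. Pgk1 had 413 to 649 RNA counts in Mael+/- and 326 to 712 in Mael-/- libraries, but 1 or 2 footprint counts in Mael+/- and 1 to 3 in Mael-/- libraries. Against a floor of 3 counts per library its footprints were at least 63.9-fold lower than its RNA in Mael+/- and at least 81.8-fold lower in Mael-/- testes. Gapdh had 3092 to 3766 RNA counts and 52 to 96 footprint counts in Mael+/- libraries, with a log2 difference of -4.02 (SE 0.12, edgeR adjusted p 3.57e-12), and -3.86 (SE 0.12) in Mael-/- testes. Pkm was lower in footprints by -1.12 (SE 0.10, edgeR adjusted p 3.99e-07) on the log2 scale in Mael+/-, Slc2a3 by -1.10 (SE 0.35, edgeR adjusted p 0.0149) and Ldha by -0.73 (SE 0.14, edgeR adjusted p 0.000435). Ldhb was higher in footprints, by 0.28 (SE 0.11, edgeR adjusted p 0.0338) in Mael+/- and by 0.42 (SE 0.11, edgeR adjusted p 0.00340) in Mael-/- testes. In Mael-/- testes Pkm, Slc2a3 and Ldha were lower too, at -1.13, -1.07 and -0.62. Some calls rested on single extracts. That of Ldhb in Mael+/- was lost without Mael+/- extract 1 (0.28) or 3 (0.20) and without Mael-/- extract 2 or 3 (0.28 in each), which share its estimate of spread. That of Slc2a3 was lost in Mael+/- without Mael+/- extract 3 (-1.13), and in Mael-/- without any one of the Mael-/- extracts (-1.08 to -1.04).

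Ldhc and Slc16a1 depended on how the extracts entered the fit. Without pairing, Ldhc was at 0.88 (SE 0.90, edgeR adjusted p 0.431) in Mael+/- and 0.50 (SE 1.15, edgeR adjusted p 0.735) in Mael-/- testes. With each extract as a block it was called higher in footprints, by 0.85 (SE 0.10, edgeR adjusted p 3.42e-08) and 0.48 (SE 0.15, edgeR adjusted p 0.00635). Slc16a1 was at -0.24 (edgeR adjusted p 0.0830) in Mael+/- and -0.33 (edgeR adjusted p 0.0199) in Mael-/- testes without pairing, and was called lower in both with the block (edgeR adjusted p 0.00430 and 0.000199). Its call in Mael-/- without pairing was lost when any one of the Mael-/- extracts was left out (-0.37 to -0.27). With the block, all 8 genes were called in each genotype, where 69.3% of all genes were called in Mael+/- and 69.6% in Mael-/- testes.

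These differences were then set beside the unique share of the coding sequence. Per kb of annotated length, the log2 ratio of footprints to RNA in Mael+/- testes was -6.71 ± 0.82 (SD, n = 3) for Pgk1 and -3.58 ± 0.27 for Gapdh, the genes with unique shares of 0% and 5.7%. It was -0.15 ± 0.11 for Pkm, 0.09 ± 0.12 for Ldha and 0.62 ± 0.14 for Ldhb, whose unique shares lie between 37.1% and 42.9%. It was 0.31 ± 0.04 for Slc2a3, 1.34 ± 0.10 for Slc16a1 and 1.36 ± 0.15 for Ldhc, all with shares above 98%. The order was not strict, since Slc2a3 lay below Ldhb. Among the genes described here and the other genes of the pathway with at least 50 RNA counts in each Mael+/- library, 37 with a unique share over 60% ran from -0.25 to 3.28 (median 0.96), which overlaps the range of 8 genes from 10% to 60%, at -0.31 to 0.69 (median 0.13). Over all genes with a mean of at least 5 CPM in Mael+/- RNA, the median was -2.22 for 207 genes with a unique share under 10%, -0.05 for 448 genes from 10% to 50%, 0.75 for 929 genes from 50% to 90% and 0.90 for 9958 genes above.

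Footprints were then counted per unique 30-base stretch of coding sequence and RNA per unique 75-base stretch of mRNA (75 bases being the length of the reads). With this scaling 4 genes came together in Mael+/- testes. The log2 ratio in Mael+/- testes was then 1.26 ± 0.12 for Ldha, 1.47 ± 0.14 for Ldhb, 1.09 ± 0.11 for Pkm and 1.25 ± 0.15 for Ldhc. Slc16a1 and Slc2a3 stayed at 1.35 ± 0.10 and 0.32 ± 0.04. Gapdh stayed low, at -3.74 ± 0.27, where its mRNA is nearly as poor in unique sequence (6.2%) as its coding sequence, and Pgk1 has no value, with 0 unique stretches. In Mael-/- testes the 4 genes stood further apart, at 1.40 ± 0.32 for Ldha, 1.61 ± 0.12 for Ldhb, 1.09 ± 0.21 for Pkm and 0.92 ± 0.23 for Ldhc. Over the 8 genes with unique shares from 10% to 60%, the scaled Mael+/- values ran from -0.45, for Mpc1, to 1.47 (median 1.15). This scaling assumes that reads with several matches were not counted. How the authors treated them in these libraries is not given in the sources used here, and the part of the pseudogene copies in the low footprints of Pgk1 and Gapdh was not tested.

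**Figure D5:**
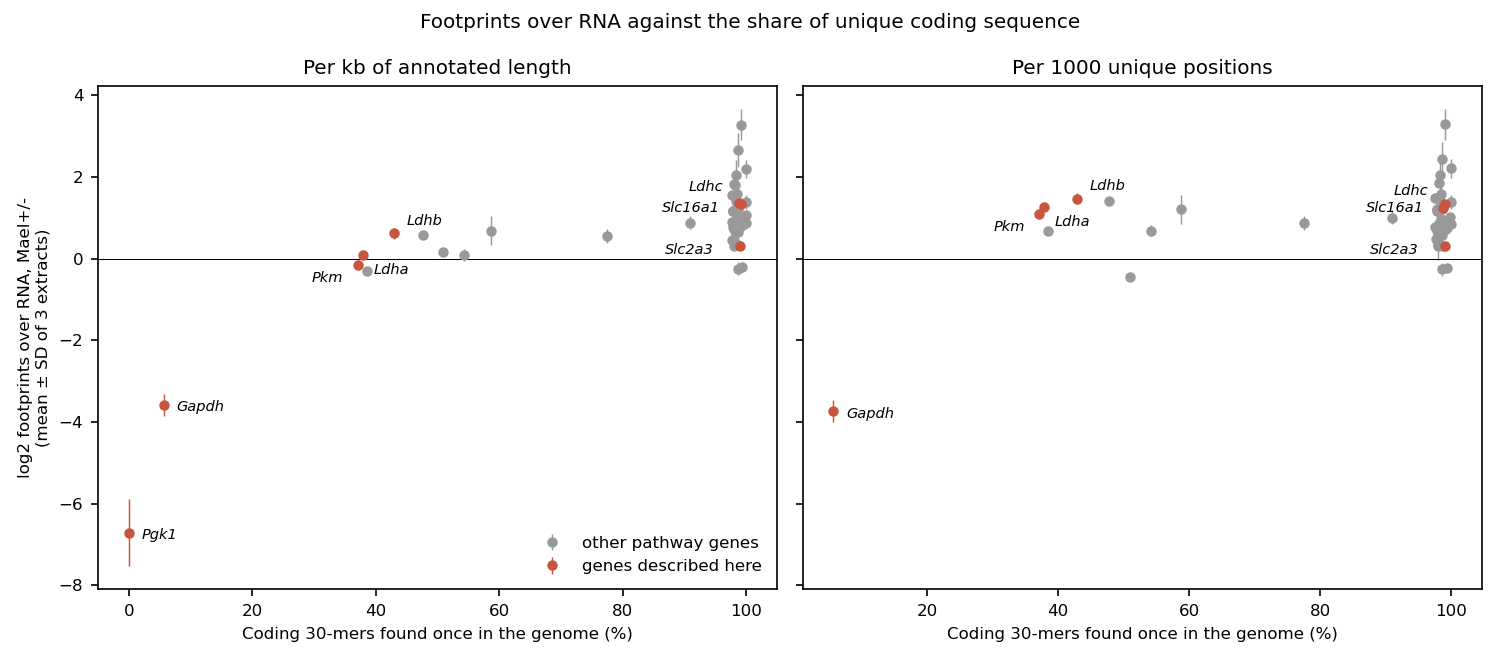
Log2 ratio of footprints to RNA in Mael+/- testes (y axis, mean ± SD of 3 extracts) against the percentage of coding 30-base stretches found once in the genome (x axis), for the genes described here (red) and other genes of the pathway (grey) with at least 50 RNA counts in each Mael+/- library. Per kb of annotated length (left) Pgk1 and Gapdh lie lowest, and Ldha, Ldhb and Pkm lie far above them, within the lower part of the range of genes with shares over 60% (-0.25 to 3.28); per 1000 unique positions (right) Ldha, Ldhb and Pkm lie at the height of Ldhc, and Gapdh stays low.

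The same scaling bears on the isozyme ratios. Per kb, the log2 ratio of Ldhc to Ldha was higher in footprints than in RNA in 6 of 6 extracts, by 1.04 ± 0.40 (SD; exact sign permutation over extracts, two-sided p = 0.031, adjusted p = 0.031 over 4 pairs), the smallest p that 6 extracts allow. That of Ldhb to Ldha was higher in 6 of 6 extracts by 0.53 ± 0.13, with the same p by the exact permutation test. Per unique position, an alternative chosen after the data were seen, the difference for Ldhc to Ldha turned to -0.24 ± 0.40 and was positive in 1 of 6 extracts (exact permutation p = 0.188). That for Ldhb to Ldha shrank to 0.21 ± 0.13, positive in 5 of 6 extracts (exact permutation p = 0.0625). The ratios of Pgk2 to Pgk1 and Gapdhs to Gapdh were also higher in footprints in 6 of 6 extracts. Their sizes rest on few counts, and in both the somatic gene is the one with almost no unique coding sequence.

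The other 55 genes of glycolysis, lactate and pyruvate handling gave the background within the pathway. Of these, 46 were tested between genotypes in RNA and 42 in footprints. In each, edgeR called 0, where 0.116% of all genes were called in RNA and 0.0593% in footprints. The median log2 fold change was 0.01 in both. At an unadjusted p under 0.05 there were 8 of 46 in RNA (3 higher, 5 lower in Mael-/-), against 5.40% of all genes. There were 5 of 42 in footprints (2 higher, 3 lower), against 4.33% of all genes. Those in RNA, named after their values were seen, were Ldhd, Slc2a1 and Pfkl, which were higher, and Fbp1, Ldhal6b, Pdha2, Eno3 and Pdhb, which were lower. The 5 in footprints, named in the same way, were Ldhd and Slc2a1, which were higher, and Ldhal6b, Pdha2 and Aldoc, which were lower. Fbp1, a fructose-1,6-bisphosphatase of gluconeogenesis, had 296, 19 and 45 RNA counts in Mael+/- and 0, 4 and 5 in Mael-/- libraries. The groups did not overlap, which held for 10.4% of all genes tested, and the highest value of Fbp1 was again that of Mael+/- extract 1. Its log2 difference was -5.12 (SE 1.23, edgeR unadjusted p 0.00201, adjusted p 0.501). Without Mael+/- extract 1 it was -3.04 (SE 0.61) and was called, with an edgeR adjusted p of 0.0446, the remaining leave-one-out fits giving no call. Its footprints, 67, 4 and 12 counts in Mael+/- and 5, 1 and 5 in Mael-/- libraries, overlapped and did not pass the filter on low counts. Pdha2, the intronless autosomal counterpart of the X-linked pyruvate dehydrogenase gene Pdha1, is another isozyme of meiotic germ cells, and Ldhal6b is a lactate dehydrogenase-like gene of the testis. Pdha2 had 1395, 601 and 640 RNA counts in Mael+/- and 242, 381 and 461 in Mael-/- libraries, and a log2 difference of -1.0 (SE 0.33, edgeR adjusted p 0.833), or -0.38 without Mael+/- extract 1. Ldhal6b had 487, 60 and 80 RNA counts in Mael+/- and 15, 24 and 21 in Mael-/- libraries, and a log2 difference of -3.13 (SE 0.83, edgeR adjusted p 0.600), or -1.39 without that extract. Both were thus highest in the extract that was highest in Ldhc and in pachytene markers. Slc2a1, the glucose carrier GLUT1, had 37.1 ± 0.791 CPM in Mael+/- RNA and 46.1 ± 0.798 in Mael-/- RNA, a log2 difference of 0.32 (SE 0.09, edgeR adjusted p 0.609).

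In footprints against RNA, 45 of the 55 genes were tested. In Mael+/- testes 22 of 45 were called, 9 higher and 13 lower, where 56.7% of all genes were called. In Mael-/- testes 25 of 45 were called, 12 higher and 13 lower, where 57.2% of all genes were called. With each extract as a block 31 were called in Mael+/- testes, 13 higher and 18 lower, where 69.3% of all genes were called. In Mael-/- testes the block gave 29 calls, 15 higher and 14 lower, where 69.6% of all genes were called. The block added 9 calls in Mael+/- testes. Higher were Pdha2 at 0.42 (edgeR adjusted p 0.000110, against 0.345 without pairing), Ldhal6b at 0.47 (edgeR adjusted p 0.00684, against 0.640), Hk2 at 0.22 and Pfkfb3 at 0.20, and lower were Eno2 at -0.96, Fbp1 at -0.76, Tpi1 at -0.27, Emb at -0.23 and Gpi1 at -0.19. It added 4 calls in Mael-/- testes, of Eno4 at 0.34, Ldhd at 0.32 and Pdha2 at 0.22, which were higher, and Emb at -0.29, which was lower. The block lost 0 calls in either genotype. Without pairing, the 25 calls in Mael-/- testes fell to 14 without Mael-/- extract 2 and to 16 without extract 3. The lowest in both genotypes was Pgam1, the phosphoglycerate mutase of most tissues. It had 475 to 1369 RNA counts and 0 or 1 footprint counts per library, so that its footprints were at least 122-fold lower in Mael+/- and 147-fold lower in Mael-/- testes. Its coding sequence has a unique share of 0%, with a complete copy in the pseudogene Pgam1-ps2 on chromosome 7. In Mael+/- testes Pdk1, a kinase that switches off pyruvate dehydrogenase, followed at -1.43 (SE 0.10), and Bpgm, the bisphosphoglycerate mutase, at -1.25 (SE 0.11). In Mael-/- testes Mpc1, a subunit of the mitochondrial pyruvate carrier, followed at -1.58 (SE 0.17) and Pdk1 at -1.41 (SE 0.10). The highest was Pdk2, another of these kinases, at 1.55 (SE 0.15) and 1.61 (SE 0.15). Dld, a subunit of the pyruvate dehydrogenase complex, was at 1.04 (SE 0.16) and 0.96 (SE 0.16), Slc2a1 at 0.62 (SE 0.10) in Mael+/- and Pdk4 at 0.69 (SE 0.22) in Mael-/- testes. Eno1, the enolase of most tissues, had 0 to 2 RNA counts and 0 footprint counts in every library. Its coding sequence had a unique share of 9.9%. Of its 75-base mRNA stretches 31.6% were unique, more than for Pgk1 (8.5%) or Gapdh (6.2%), which had many more RNA counts. Why Eno1 had so few RNA counts was not tested, and its amount cannot be read from them.

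Genes most like Ldhc across the 12 libraries were sought among 11235 genes that averaged 50 counts or more in each assay, by the root-mean-square difference of log2 CPM centred on each assay's mean. The nearest were BC049730 at 0.28, Ccdc108 at 0.38 and Cers3, a ceramide synthase, at 0.39, where the median gene was at 1.59. In RNA, BC049730 had 442, 64 and 94 counts in Mael+/- and 23, 31 and 35 in Mael-/- libraries. Cers3 had 1915, 311 and 370, and 87, 94 and 192. In counts, each was highest in Mael+/- extract 1 and next in extract 3. This order follows from the choice by likeness to Ldhc over the same libraries. Pgk2 and Gapdhs had too few counts to be compared in this way.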

How the data were processed

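RNA and ribosome footprints were measured in 12 libraries of P16 testes, in 4 groups of 3 by genotype and assay, as the labels give them. The authors deposited raw read counts per gene. Per the methods and the labels they clipped footprint reads, trimmed a 5-base molecular identifier, removed ribosomal reads with Bowtie 1.2.2, aligned to mm10 with STAR 2.6.0c and counted with featureCounts (Subread 1.6.4), taking the entire mRNA for RNA libraries and the coding sequence for footprints of 28–34 nt. The gene annotation, the strand setting, the treatment of reads with several matches and whether duplicates were collapsed are not given in the sources used here, so counts may hold copies of a molecule and floors cover counting error only. Other deposited tables hold the authors' own fold changes and p-values and were not used. Totals of gene counts per library are given with the results.

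Counts were fitted with edgeR 4.0.16 in R 4.3.3 (quasi-likelihood F-test, TMM within each assay, default filter, Benjamini-Hochberg adjustment over all genes tested, calls at an adjusted p under 0.05), checked on simulated counts. The genotypes were compared over the 6 libraries of each assay, and footprints against RNA, with the interaction, over 12. RNA and footprint libraries of the same extract deviated together over 11235 genes, with correlations of 0.8, 0.67 and 0.73 in Mael+/- and 0.26, 0.28 and 0.26 in Mael-/- extracts, so each extract was a pair, and the blocked value is given where the extract block changed a call. Log2 isozyme ratios used counts plus 0.5. Exact permutation tests used SciPy 1.17.1. Levels per kb and unique shares used curated RefSeq transcripts and the primary assembly of GRCm38.p6. Alternatives were DESeq2 1.42.0, median-of-ratios factors, no filter or a mean of at least 50 counts, replicate blocks and leaving out each replicate. The members and lists were chosen with earlier results of these data known. Genes named beside the members were those of the pathway list called in a fit, up to 3 each way with the largest fold and a mean of at least 50 counts, and the 3 genes most like a germ cell isozyme.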

Additional observations from a re-analysis of the deposited data

How the results depend on the processing

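Of 631 values recomputed under other settings, 564 kept both sign and call (or, for a count, stayed within 1.5 times), 37 lost the threshold, 3 gained it, 4 counts moved further and 23 values changed sign. The number of the 10 genes called between genotypes was 0 in RNA, in footprints and in footprints beyond RNA under every setting run, and that in footprints against RNA ran from 5 to 8. Calls depended on depth: Pgk2 and Gapdhs could not be tested, nor Pgk1 in footprints. The ratio of Ldhc to Ldha between assays was -0.24 per unique position, and that of Ldhb to Ldha 0.21 and that of Gapdhs to Gapdh 7.31 lost the threshold under this scaling, which gave 3 pairs only. With 1 extract left out, 5 extracts cannot reach the threshold, and the assay differences ran from 0.97 to 1.18 for Ldhc to Ldha, 0.51 to 0.58 for Ldhb to Ldha, 5.56 to 6.54 for Pgk2 to Pgk1 and 6.87 to 7.36 for Gapdhs to Gapdh.

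The replicate number across genotypes was treated as a number only: deviations of same-numbered libraries correlated at 0.3, -0.03 and 0.2 in RNA and 0.08, 0.29 and 0.06 in footprints. With it as a replicate block the log2 fold change of Ldhc was -1.87 in RNA and -2.50 in footprints, and Ldha was at 0.00 in footprints, with 0 genes called. The differences in the log2 ratio of Ldhc to Ldha stayed at -1.65 in RNA and -2.11 in footprints. In a balanced design a block cannot change a difference of means, so these values are no check. The block changed no call of the 10 genes between genotypes. Of the other genes of the pathway it called 1 in RNA, Fbp1, at -4.43 (SE 0.72, edgeR adjusted p 0.0255), and 0 in footprints. The calls that the extract block changed in footprints against RNA are given with the results. These counts over the other genes of the pathway were added after the data were seen. With 1 replicate left out they lay between 0 and 1 for RNA between genotypes, and between 14 and 25 for the assays compared within Mael-/- testes.

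Signs changed with 1 replicate left out where a value lay near 0. The ratio of Ldhb to Ldha between genotypes ran from 0.00 to 0.30 in RNA, that of Pgk2 to Pgk1 from -1.22 to 0.51 and that of Gapdhs to Gapdh from -0.52 to 0.15 in footprints. Log2 fold changes in RNA ran from -0.26 to 0.01 for Ldha, from -0.03 to 0.07 for Ldhb and from -0.03 to 0.08 for Pkm. In footprints they ran from -0.10 to 0.09 for Ldha, -0.02 to 0.21 for Gapdh and -0.05 to 0.12 for Pkm. Beyond RNA they ran from -0.06 to 0.22 for Ldha, -0.30 to 0.72 for Pgk1, -0.11 to 0.09 for Pkm and 0.00 to 0.07 for Slc2a3.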
